A study of Mus musculus with 12 samples.

Results

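The 41 genes described here encode proteins that copy DNA and divide the cell, and were listed by name for their function. The list was made with earlier results of these data known. A region of accessible chromatin was taken when the protein-coding gene it overlapped, or the nearest such gene within 50000 bases, was on the list. By this rule 50 of 16028 regions in the series belonged to 40 of the 41 genes (97.6%), while 52.6% of all 21896 protein-coding genes had a region. The most distant lay 26539 bases from its gene. The regions came from ATAC-seq, in which a transposase cuts and tags open DNA, of ER-Hoxa9-Lys-GFP cells. These are C57BL/6 mouse myeloid progenitors grown with stem cell factor, held immature by Hoxa9 fused to the estrogen receptor, and carrying GFP as a reporter of lysozyme expression. All groups carry the fusion and the reporter, and all were cultured in vitro. Of 12 libraries in 6 groups of 2, one group stayed in estradiol (E2), which keeps the fusion active. In 4 groups E2 was withdrawn for 24, 40, 56 or 72 h and then added back for 96, 80, 64 or 48 h, and the last group spent 120 h without E2. There was 1 peak list for each group, so there was no replicate value and no test between conditions, and differences between lists are given as counts and widths. The labels describe nuclei of 1 preparation divided between 2 transposition reactions, so the libraries of a group may be technical repeats. Longer withdrawal came with shorter add-back, so these times cannot be told apart. Lists are ordered below by hours without E2. The add-back groups ended in E2, so they are not earlier time points of the 120 h group.

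Before S phase, the origin recognition complex with Cdc6 and Cdt1 loads the Mcm2 to Mcm7 helicase on DNA, a step called licensing. Cyclin-dependent kinases with cyclin E and cyclin A start and sustain replication, and Cdk1 with cyclin B drives entry into mitosis, which the spindle checkpoint holds until chromosomes are attached. Many genes of S phase are controlled by E2F factors through sites rich in TTTCCCGC-like letters. Many genes of mitosis are controlled through CCAAT boxes, bound by NF-Y, and the cell cycle genes homology region (CHR), bound by DREAM and other MuvB complexes. Myeloid progenitors cycle until terminal differentiation, when these genes are usually shut down.

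After removal of repeated rows, the lists held 13165 peaks in continuous E2. The add-back lists held 11465 (24 h), 9940 (40 h), 8989 (56 h) and 9581 peaks (72 h), and the 120 h list held 7987. No score, count or depth is given in the lists, so a region that is not called is not shown to be closed. Intervals below are 95% Wilson intervals over regions and cover counting error only. Peaks became narrower along the series over the whole genome, with a median width of 581 bases at 120 h against 839 bases in continuous E2. Of 8 myeloid progenitor markers, 7 had a region at the gene boundary in continuous E2, including Kit, Cd34, Flt3 and Spi1. Of these 7 regions, that of Spi1 was also called at 120 h, and the other 6 were not. Over all genes, 29.5% of boundary regions called in continuous E2 were not called at 120 h. Of 5 mature neutrophil markers 4 had a region, with those of Fpr1 and Itgb2l called at 120 h alone. The other markers did not share that pattern: the region of Ltf was called in continuous E2 and after 24 h alone, and that of Mmp8 was called at both end points, with 291 bases at 120 h against 646 bases in continuous E2. Of the erythroid and T cell markers, Klf1 and Tcf7 had a region, and Gata1, Epor, Cd3e and Cd4 had none. The B cell factor genes Ebf1 and Pax5 had regions. The part of differentiation in the results below was not tested.

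RefSeq promoters of 300 bases, from 250 before the start to the first 50 transcribed (build GRCm38.p6), were at hand for 34 of the 41 genes. In 33 of these, the start lay inside a called region, and E2f2 was the exception. For most of them, these promoters are therefore the sequence under the peaks described below. The 8 shown here were picked to represent licensing (Mcm6, Mcm3), nucleotide supply (Rrm2), cyclins and kinases (Cdk1, Ccnb2, Cdk2) and mitosis (Plk1, Mki67), with regions called in all lists (Mcm6, Cdk1, Ccnb2), not in continuous E2 (Mcm3, Rrm2) and not at 120 h (Cdk2, Plk1, Mki67). Each is written 5′ to 3′ on the strand of its gene, and capitals mark the E2F-type, CCAAT and CHR letters searched.
Mcm6 (chr1:128359656-128359955, minus strand): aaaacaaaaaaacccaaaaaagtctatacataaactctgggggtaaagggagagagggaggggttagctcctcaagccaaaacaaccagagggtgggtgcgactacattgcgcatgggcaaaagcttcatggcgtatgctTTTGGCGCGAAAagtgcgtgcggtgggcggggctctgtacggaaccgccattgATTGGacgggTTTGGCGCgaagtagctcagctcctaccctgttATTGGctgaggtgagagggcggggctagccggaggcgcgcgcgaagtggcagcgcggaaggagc
Mcm3 (chr1:20820263-20820562, minus strand): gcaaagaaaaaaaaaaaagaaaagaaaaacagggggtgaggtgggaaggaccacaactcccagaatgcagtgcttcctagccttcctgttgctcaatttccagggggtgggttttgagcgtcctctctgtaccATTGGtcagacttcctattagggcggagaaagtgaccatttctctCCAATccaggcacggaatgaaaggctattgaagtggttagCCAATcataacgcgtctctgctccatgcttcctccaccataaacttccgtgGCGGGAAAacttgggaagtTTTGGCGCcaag
Rrm2 (chr12:24708004-24708303, plus strand): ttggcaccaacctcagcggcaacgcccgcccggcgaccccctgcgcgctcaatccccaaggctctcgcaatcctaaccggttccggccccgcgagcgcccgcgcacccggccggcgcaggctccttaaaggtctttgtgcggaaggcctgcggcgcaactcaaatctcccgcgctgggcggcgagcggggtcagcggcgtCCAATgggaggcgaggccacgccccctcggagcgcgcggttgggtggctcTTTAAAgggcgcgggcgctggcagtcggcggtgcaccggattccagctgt
Cdk1 (chr10:69352863-69353162, minus strand): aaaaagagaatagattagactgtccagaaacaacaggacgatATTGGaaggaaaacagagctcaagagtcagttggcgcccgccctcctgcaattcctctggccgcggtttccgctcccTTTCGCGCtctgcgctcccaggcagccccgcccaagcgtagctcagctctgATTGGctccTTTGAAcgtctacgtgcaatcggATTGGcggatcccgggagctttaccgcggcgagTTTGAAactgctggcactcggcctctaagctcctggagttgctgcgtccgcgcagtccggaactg
Ccnb2 (chr9:70421505-70421804, minus strand): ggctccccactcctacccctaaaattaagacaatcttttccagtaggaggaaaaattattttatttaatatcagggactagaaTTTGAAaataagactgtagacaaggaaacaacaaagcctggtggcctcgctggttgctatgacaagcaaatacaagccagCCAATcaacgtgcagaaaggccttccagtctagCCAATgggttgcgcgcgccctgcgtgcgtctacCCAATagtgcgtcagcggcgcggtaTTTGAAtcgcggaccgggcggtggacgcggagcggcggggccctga
Cdk2 (chr10:128705002-128705301, minus strand): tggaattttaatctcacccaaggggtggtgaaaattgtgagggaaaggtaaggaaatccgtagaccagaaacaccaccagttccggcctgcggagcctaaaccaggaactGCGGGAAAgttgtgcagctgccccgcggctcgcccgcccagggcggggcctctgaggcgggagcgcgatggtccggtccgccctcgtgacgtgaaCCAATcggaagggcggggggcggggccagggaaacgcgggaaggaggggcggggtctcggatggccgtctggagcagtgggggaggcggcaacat
Plk1 (chr7:122159185-122159484, plus strand): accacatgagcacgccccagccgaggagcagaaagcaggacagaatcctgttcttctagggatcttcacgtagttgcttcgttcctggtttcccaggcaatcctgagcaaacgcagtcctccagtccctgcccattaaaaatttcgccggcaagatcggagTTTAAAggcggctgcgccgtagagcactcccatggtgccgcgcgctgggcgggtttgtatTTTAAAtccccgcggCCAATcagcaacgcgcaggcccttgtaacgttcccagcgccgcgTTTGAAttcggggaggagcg
Mki67 (chr7:135716330-135716629, minus strand): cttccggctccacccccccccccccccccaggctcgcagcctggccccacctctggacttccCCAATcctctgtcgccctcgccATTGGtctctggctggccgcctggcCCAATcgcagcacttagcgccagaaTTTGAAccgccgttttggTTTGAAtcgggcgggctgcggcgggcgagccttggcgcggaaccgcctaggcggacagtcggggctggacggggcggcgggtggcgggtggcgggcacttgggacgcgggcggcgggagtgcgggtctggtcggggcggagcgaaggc

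The letters searched, on both strands, were TTTCCCGC, TTTCGCGC, TTTGCCGC and TTTGGCGC for E2F, CCAAT for NF-Y, and TTTGAA and TTTAAA for the CHR. E2F-type letters were found in 13 of the 34 promoters (38.2%), against 2.92% of 17491 promoters of protein-coding genes and 4.95% of the 4022 whose start lay in a region of all 6 lists. CCAAT was found in 28 (82.4%), against 39.0% and 46.7%. CHR-type letters were found in 16 (47.1%), against 25.5% and 16.9%. CCAAT and CHR letters occurred together in 15 promoters (44.1%), against 10.3% and 7.86%. The kinds of match differed between roles: E2F-type letters stood in 7 of 9 licensing and helicase promoters and in 0 of 7 mitosis promoters, while CHR-type letters stood in 2 of 9 and in 6 of 7. The other roles did not follow a split between S phase and mitosis: fork and nucleotide supply genes had E2F-type letters in 0 of 5 and CHR-type letters in 2 of 5, and cyclins and their kinases had them in 2 of 5 and 4 of 5. Among genes of Cdk control the counts were 1 of 3 and 0 of 3, and among transcription factor genes 3 of 5 and 2 of 5. Positions are counted from +1 at the start, with no 0. In Mcm6, TTTGGCGC lay at -110 to -103 and at -47 to -40, and the upstream copy overlapped TTTCGCGC on the other strand at -106 to -99. In Cdk1, TTTGAA lay at -71 to -66 and at -15 to -10, and CCAAT lay on the other strand at -208, -80 and -48. Mki67 and Plk1 had both CCAAT and CHR letters and no E2F-type letters. In some genes the start used lies well inside the gene model, as at Orc1 (3749 bases), Cdc25b (512), E2f8 (477) and E2f1 (466). The outer ends of those gene models lie outside the promoters searched. These are letter matches, with no binding measured.

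**Figure D1:**
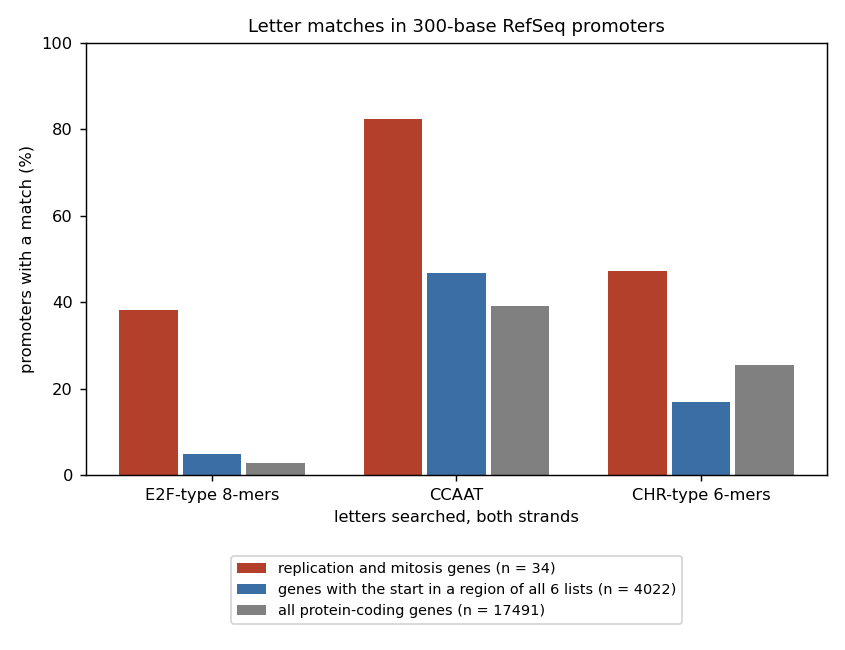
Share of 300-base RefSeq promoters with at least 1 match, for 34 replication and mitosis genes, 4022 genes whose start lies in a region of all 6 lists, and all 17491 protein-coding genes in the promoter table. Matches stand in 38.2%, 4.95% and 2.92% of promoters for E2F-type letters, 82.4%, 46.7% and 39.0% for CCAAT, and 47.1%, 16.9% and 25.5% for CHR-type letters.

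The question of the study design was how chromatin differed along E2 withdrawal. The gene boundary is the 1000 bases around the start or end of the gene. Of the 41 genes, 38 had a boundary region in at least 1 list (92.7%), against 40.8% of all protein-coding genes. In all 32 boundary regions of known strand, the boundary was the start of the gene, and none lay at the end. In the order of the lists, 32 of 41 genes had a called boundary region in continuous E2 (background 35.8%), 35 after 24 h (34.8%), 36 after 40 h (33.8%), 35 after 56 h (33%), 37 after 72 h (34.1%) and 29 at 120 h (28.7%). For 22 genes the boundary region was called in every list, 53.7% against 22.1% of all genes. Taken per region, 22 of 38 member boundary regions were in every list (57.9%), close to 51.9% of all boundary regions. The count of genes with a called boundary thus lay above the background in each list, and the share of regions in every list lay near it. No test of either was made.

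**Figure D2:**
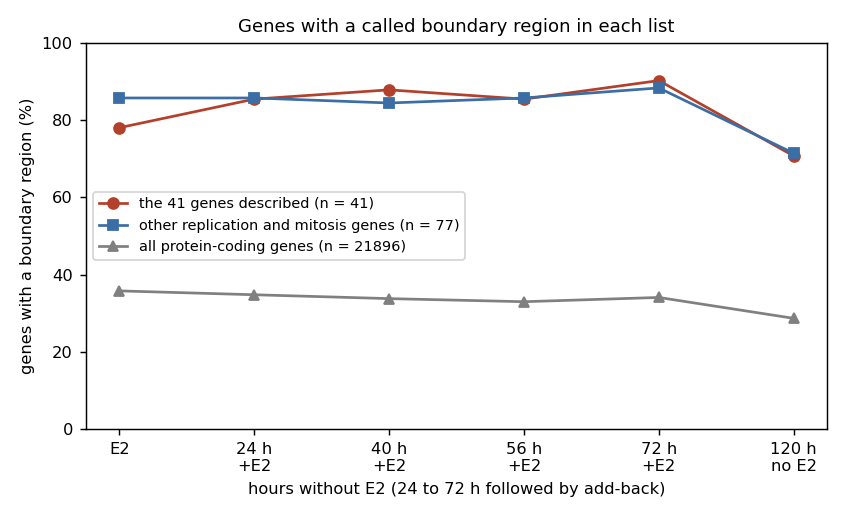
Share of genes with a called boundary region in each of the 6 lists, from continuous E2 to 120 h without E2, for the 41 genes, 77 other genes of the pathway and all 21896 protein-coding genes. The 41 genes lie between 70.7% and 90.2%, and all protein-coding genes between 28.7% and 35.8%, each lowest at 120 h.

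Between 120 h and continuous E2, 25 boundary regions of the 41 genes were called at both end points. Another 7 of the 32 called in continuous E2 were not called at 120 h, a share of 21.9% (11.0 to 38.8) against a background of 29.5% of boundary regions. They belonged to Mki67, Cdk2, Plk1, Bub1b, E2f1, Cdc25b and Foxm1. In the other direction, 4 of the 29 boundary regions called at 120 h were not called in continuous E2, a share of 13.8% (5.50 to 30.6) against a background of 9.89%. These belonged to Mcm3, Rrm1, Rrm2 and E2f3. The background shares of 29.5% and 9.89% both lie inside the intervals of the members. With every list shortened to its 7987 widest peaks, 7 of 33 member regions at any place were called at 120 h and not in continuous E2. Mcm2, Top2a and Ccnb2 were added. That setting drops peaks under 752 bases in continuous E2 but only under 114 bases at 120 h. No share over all regions is given for it.

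**Figure D3:**
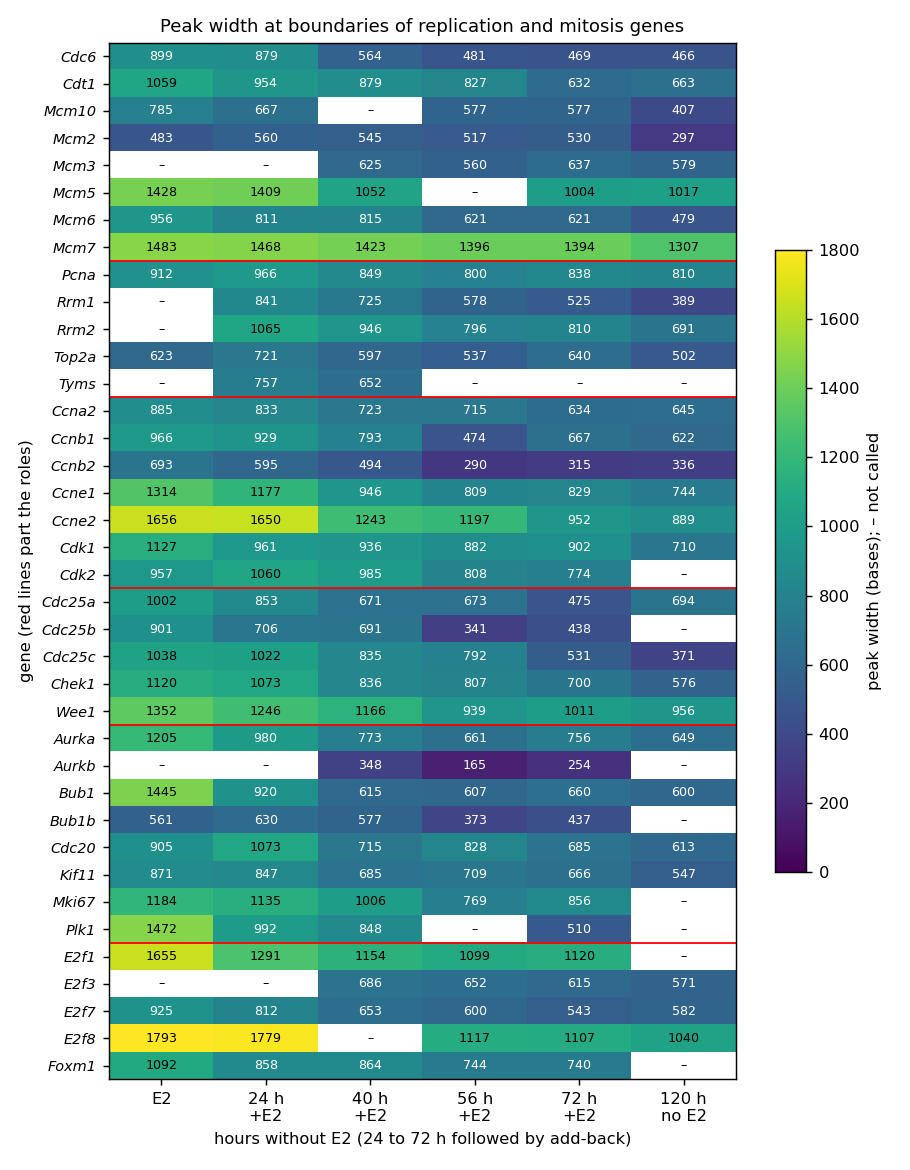
Width in bases of the peak at the boundary of each gene (rows, parted by role) in the 6 lists (columns, from continuous E2 to 120 h without E2), where a dash marks a region that was not called. The 9 rows with a dash at 120 h are Tyms, Cdk2, Cdc25b, Aurkb, Bub1b, Mki67, Plk1, E2f1 and Foxm1, and 14 of the 22 rows called in every list are narrowest in the 120 h column.

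Licensing and helicase genes had 8 boundary regions, of which 5 were in every list, 7 were called at both end points and 1 was called at 120 h and not in continuous E2. Mcm7, a helicase subunit, had one of the widest and most even peaks, with 1483, 1468, 1423, 1396, 1394 and 1307 bases along the 6 lists (chromosome 5, 138170987 to 138172469). Mcm6, another subunit, had 956, 811, 815, 621, 621 and 479 bases. Mcm2, also a subunit, had 483, 560, 545, 517, 530 and 297 bases, the narrowest of the member boundary peaks in continuous E2. The ratio of width at 120 h to that in continuous E2 was 0.881 for Mcm7, 0.615 for Mcm2 and 0.501 for Mcm6. The region of Mcm7 also covers the start of Ap4m1, which lies on the other strand.

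Mcm5, which encodes a further subunit, had peaks of 1428, 1409 and 1052 bases in continuous E2 and after 24 and 40 h, no call after 56 h, and then 1004 and 1017 bases after 72 and 120 h (chromosome 8, 75108684 to 75110111). Mcm10, which helps to start the fork, had 785 and 667 bases in continuous E2 and after 24 h, and no call after 40 h. After 56, 72 and 120 h it had 577, 577 and 407 bases. Both genes thus had a gap in a single list between wider peaks. Mcm3 (chromosome 1, 20820053 to 20820690) was not called in continuous E2 or after 24 h, and had 625, 560, 637 and 579 bases from 40 to 120 h. It was the only helicase subunit among the Mcm genes with a region that lacked a call in continuous E2.

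Cdt1, the loader of the helicase, had 1059, 954, 879, 827, 632 and 663 bases along the lists, and Cdc6, its partner, had 899, 879, 564, 481, 469 and 466 bases. The peak of Cdc6 reached past the RefSeq start of the gene in continuous E2 and after 24 h, while its downstream edge lay at -77, -173, -178 and -179 bases from that start after 40, 56, 72 and 120 h. The start in the table lies 442 bases inside the gene model, and the peak stayed over the outer part of the model in all lists. Orc1, the largest subunit of the origin recognition complex, had a region of 939, 892, 755, 686, 693 and 605 bases. It holds the RefSeq start of Orc1, but lies 3163 bases from the outermost start of the gene model and at the start of Prpf38a, and was therefore counted away from the boundary. Mcm4 had no region. The nearest lay 29107 bases from it, was called in 4 lists, and was assigned to Ube2v2.

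Genes of the replication fork and of nucleotide supply had 5 boundary regions, of which 2 were in every list. Pcna, the sliding clamp of the polymerase, had 912, 966, 849, 800, 838 and 810 bases along the lists, and Top2a, which untangles DNA, had 623, 721, 597, 537, 640 and 502 bases. Both kept most of their width at 120 h, and the region of Pcna also overlaps Cds2. Rrm1 and Rrm2, the large and small subunit of ribonucleotide reductase, which makes deoxynucleotides, were both called in every list except continuous E2. Rrm2 had 1065, 946, 796, 810 and 691 bases from 24 to 120 h (chromosome 12, 24707713 to 24708777), and Rrm1 had 841, 725, 578, 525 and 389 bases (chromosome 7, 102441422 to 102442305). Both were widest after 24 h, the first list in which they were called. Tyms, which makes thymidylate, was called after 24 and 40 h with 757 and 652 bases, and at neither end point. Of boundary regions called in the 5 other lists, 5.06% over all genes were missing from continuous E2 alone. For the 41 genes it was 2 of 24 (8.33%).

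Cyclins and their kinases had 7 boundary regions, of which 6 were in every list. Cdk1, the kinase of mitosis, had 1127, 961, 936, 882, 902 and 710 bases (chromosome 10, 69352155 to 69353281). Its cyclins Ccnb1 and Ccnb2 had 966, 929, 793, 474, 667 and 622 bases, and 693, 595, 494, 290, 315 and 336 bases. Both cyclin B peaks were at their narrowest after 56 h, not at 120 h. Ccna2, which serves both S phase and mitosis, had 885, 833, 723, 715, 634 and 645 bases. The cyclin E genes had wider peaks, with 1656, 1650, 1243, 1197, 952 and 889 bases at Ccne2 and 1314, 1177, 946, 809, 829 and 744 bases at Ccne1. Cdk2, the partner of cyclins E and A, had 957, 1060, 985, 808 and 774 bases from continuous E2 to 72 h and was not called at 120 h (chromosome 10, 128704355 to 128705510). The region of Cdk2 also overlaps the gene model of Pmel.

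Of the genes that set Cdk activity, Cdc25a, Cdc25c, Wee1 and Chek1 had a boundary region in every list. Wee1, which holds Cdk1 inactive, had 1352, 1246, 1166, 939, 1011 and 956 bases. Cdc25a, a phosphatase that activates the kinases, had 1002, 853, 671, 673, 475 and 694 bases, with its narrowest peak after 72 h. Chek1, a checkpoint kinase of stalled replication, had 1120, 1073, 836, 807, 700 and 576 bases. Cdc25c, a phosphatase of Cdk1, had 1038, 1022, 835, 792, 531 and 371 bases, the lowest ratio of width at 120 h to that in continuous E2 (0.357) among the 22 regions in every list. It lies on chromosome 18, on which the deposited rows were repeated. Cdc25b, another of the phosphatases, had 901, 706, 691, 341 and 438 bases up to 72 h and was not called at 120 h (chromosome 2, 131186482 to 131187382).

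Genes of mitosis had 8 boundary regions, of which 4 were in every list, 3 were called in continuous E2 and not at 120 h, and 1 was called at neither end point. Bub1, a kinase of the spindle checkpoint, had 1445, 920, 615, 607, 660 and 600 bases, narrowing mainly between continuous E2 and 40 h. Aurka, a spindle pole kinase, had 1205, 980, 773, 661, 756 and 649 bases, in a region that also covers the start of Cstf1. Cdc20, which activates the anaphase promoting complex, had 905, 1073, 715, 828, 685 and 613 bases. Kif11, a motor that separates spindle poles, had 871, 847, 685, 709, 666 and 547 bases. These 4 differed in the lists where they narrowed most, but each was narrower at 120 h than in continuous E2.

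The regions of Mki67, Bub1b and Plk1 were those of mitosis genes without a call at 120 h. Mki67, whose product coats mitotic chromosomes and is a marker of cycling cells, had 1184, 1135, 1006, 769 and 856 bases up to 72 h (chromosome 7, 135715744 to 135716927). Bub1b, a checkpoint protein, had 561, 630, 577, 373 and 437 bases (chromosome 2, 118597825 to 118598531). Plk1, a kinase of several steps of mitosis, had 1472, 992 and 848 bases in continuous E2 and after 24 and 40 h, no call after 56 h, 510 bases after 72 h and no call at 120 h (chromosome 7, 122158709 to 122160180). Unlike Mki67 and Bub1b, Plk1 thus also lacked a call in the 56 h add-back list. Aurkb, the kinase of the chromosomal passenger complex, had narrow peaks of 348, 165 and 254 bases after 40, 56 and 72 h, and no call at either end point.

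Transcription factor genes had 5 boundary regions, of which 1, that of E2f7, was in every list. E2f1, an activator of S phase genes, had 1655, 1291, 1154, 1099 and 1120 bases up to 72 h and was not called at 120 h (chromosome 2, 154568992 to 154570646). Foxm1, an activator of mitosis genes, had 1092, 858, 864, 744 and 740 bases up to 72 h and was not called at 120 h, in a region that also overlaps Rhno1 (chromosome 6, 128362351 to 128363442). The activator E2f3 went the other way, with no call in continuous E2 or after 24 h and 686, 652, 615 and 571 bases from 40 to 120 h (chromosome 13, 29985977 to 29986663). The repressors of the family were called at both end points: E2f7 had 925, 812, 653, 600, 543 and 582 bases. E2f8 had 1793 and 1779 bases in continuous E2 and after 24 h, and no call after 40 h (chromosome 7, 48880740 to 48882532). In the lists of 56, 72 and 120 h it had 1117, 1107 and 1040 bases. The peak of E2f8 was the widest member boundary peak in continuous E2. E2f2 had no boundary region.

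**Figure D4:**
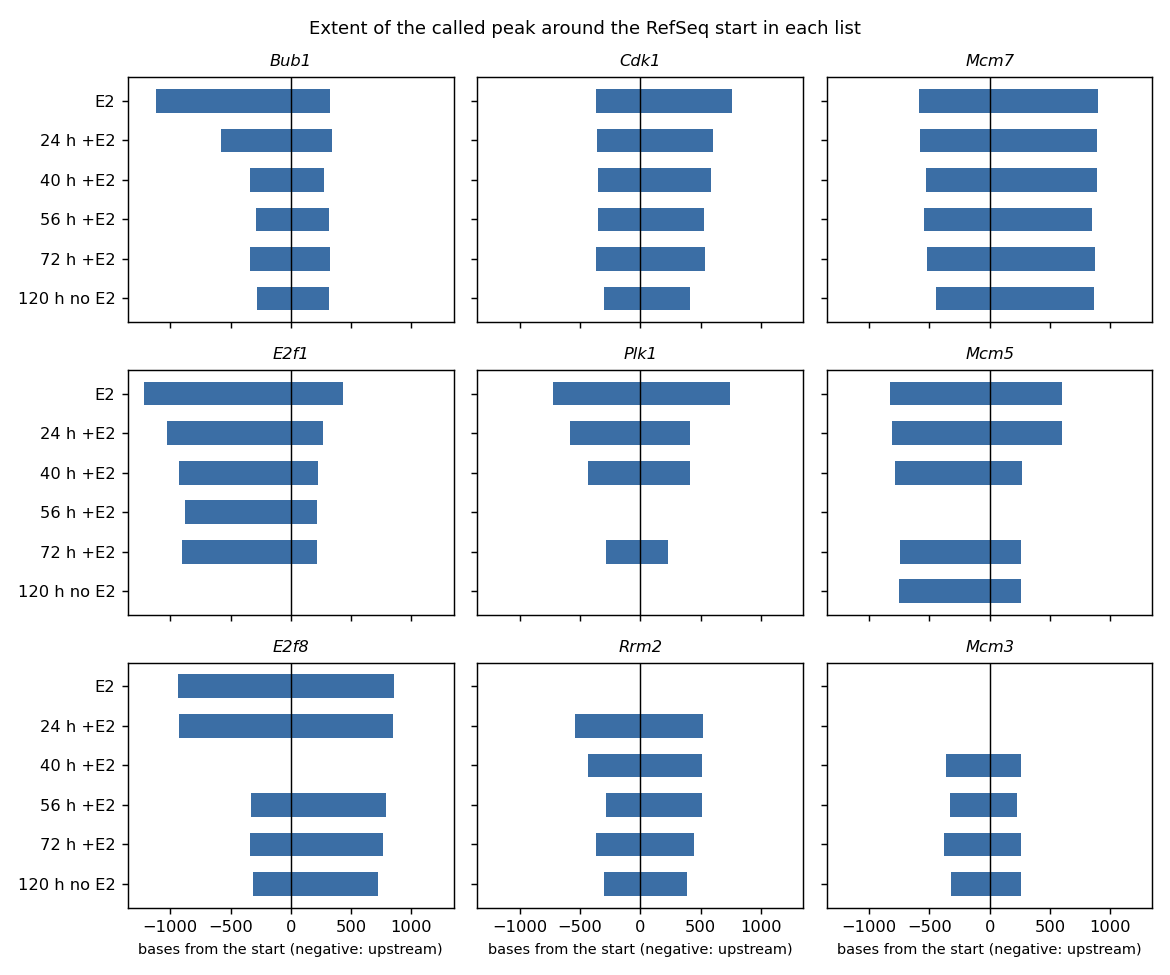
Extent of the called peak, in bases upstream (negative) and downstream of the RefSeq start, in each list for 9 genes, where an empty row is a list without a call. The peak of Bub1 shortens upstream, from its widest extent of 1120 bases in continuous E2, while its downstream edge stays between 273 and 340 bases, and Mcm5 and E2f8 show wide peaks on each side of a list without a call.

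The 7 boundary regions that were called in continuous E2 and not at 120 h included wide and narrow ones. Their median width in continuous E2 was 1092 bases, with a range of 561 to 1655, against a median of 1002 bases (483 to 1793) in the 25 called at both end points. Over all genes the order was the other way, with 889 and 976.5 bases. The peak of E2f1 was wider than 96.1% of boundary peaks in continuous E2, and 102 of the 271 boundary regions at least as wide (37.6%) were not called at 120 h. For Plk1 the values were 92%, and 189 of 551 (34.3%). For the other 5 genes, the share not called at 120 h among boundary regions at least as wide was lower, at 27.5% for Mki67, 26.4% for Foxm1, 24.9% for Cdk2, 24.8% for Cdc25b and 27.6% for Bub1b, each under the 29.5% of all boundary regions. For Bub1b, the narrowest of the 7, 6.13% of boundary peaks in continuous E2 were narrower. The share was thus above that of all boundary regions for the peaks at least as wide as those of E2f1 and Plk1, and below it for the other 5.

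Of the 28 member boundary regions called in the 5 other lists, 6 were missing from the 120 h list alone (21.4%, background 13.6%), namely Mki67, Cdk2, Bub1b, E2f1, Cdc25b and Foxm1. Gaps of this kind in other lists were fewer. From 40 h alone, 2 of 24 were missing (8.33%, background 3.72%), namely Mcm10 and E2f8. From 56 h alone, 1 of 23 was missing (4.35%, background 3.54%), namely Mcm5. None of 22 was missing from 24 h alone (background 4.1%) or 72 h alone (background 1.72%). These are counts of 0 to 6 regions, and no test was made.

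Along the lists, the 22 boundary regions in every list narrowed in their median at each step, but single regions widened at some steps. Their median width was 984 bases in continuous E2, 941.5, 783, 712 and 663 bases after 24, 40, 56 and 72 h, and 617.5 bases at 120 h. All 22 were narrower at 120 h than in continuous E2, with a median ratio of 0.627, against 0.668 over all 4112 boundary regions in every list, 98.6% of which were narrower. Narrowing was thus shared by nearly all boundary regions called in every list, and the others were not compared in this way. Among the 22, the smallest ratios were those of Cdc25c (0.357), Bub1 (0.415) and Ccnb2 (0.485), and the largest those of Pcna (0.888), Mcm7 (0.881) and Top2a (0.806). Between 56 and 72 h, 11 of 22 narrowed further, and 50.5% did over all genes. The narrowest of the 6 peaks was at 120 h in 14 of the 22, after 72 h in 4 and after 56 h in 4.

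Peaks shortened on both sides of the start. Extent was taken in the 19 member regions in every list that hold a RefSeq start of their gene. They include the Orc1 region, which was counted away from the boundary. Their median extent upstream was 318 bases at 120 h against 490 bases in continuous E2, and downstream 268 against 500 bases. Over 2814 boundary regions in every list that hold 1 start, the medians were 286 against 411 bases upstream and 307.5 against 504 bases downstream. Single genes differed: Bub1 reached 280 bases upstream at 120 h against 1120 in continuous E2, with 319 against 324 bases downstream. Cdk1 reached 298 against 369 bases upstream, and 411 against 757 bases downstream. Mcm7 changed little on the downstream side, with 863 against 896 bases.

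Away from boundaries, 12 regions belonged to 10 of the genes, and 3 of the 12 were in every list (25%, background 14.4%). Of the 9 called in continuous E2, 5 were not called at 120 h, a share of 55.6% (26.7 to 81.1) against a background of 73.4%. With every list shortened to its 7987 widest peaks, the count was 2 of 6 (33.3%), in E2f2 and Wee1. No share over all regions is given for that setting. In the full lists, none of the 4 called at 120 h was missing in continuous E2, against a background of 36.2%. In the order of the lists, 9, 7, 7, 5, 9 and 4 of the 12 regions were called, against 77.6%, 59.2%, 43.3%, 33.3%, 38.6% and 32.3% of all 6884 regions away from boundaries. At 72 h the 9 members make 75%. The background was placed otherwise: there a region at the boundary of any protein-coding gene counts as a boundary region. The Orc1 region, at the start of Prpf38a, is among the 12 here but among boundary regions in the background. Called in every list, it raises the 25% and lowers the 55.6%. Such regions may be enhancers of the gene assigned or of another, and distance alone does not tell which.

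Those in every list were the Orc1 region, one lying 12441 bases past the end of Ccne1 (chromosome 7, 38084712 to 38085543) and one lying 19129 bases upstream of Mki67. The distal region of Mki67 had 897, 850, 1014, 770, 811 and 785 bases (chromosome 7, 135735579 to 135736599), and so stayed called at 120 h while that at the gene start did not. A region 26539 bases upstream of E2f8 was called in every list but that of 56 h. Regions called in continuous E2 and not at 120 h lay 10403 bases upstream of Rrm2, 5069 bases inside E2f2, 17151 bases upstream of E2f3, and 12500 and 20833 bases from Wee1. The E2f3 region and the nearer Wee1 region were called in continuous E2 alone, with 262 and 691 bases. The Rrm2 region was called in continuous E2 and after 24 h with 635 and 569 bases, while the region at the start of Rrm2 was called from 24 h on, so the pair overlapped in the 24 h list alone. The E2f2 region, 945, 948 and 777 bases wide up to 40 h, was not called after 56 h, had 532 bases after 72 h and was not called at 120 h. The more distant Wee1 region had the same pattern, with 1047, 850, 852 and 844 bases where called. The boundary region of Plk1 was called in the same 4 lists.

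Away from boundaries, regions of the add-back lists alone lay in Cdc6, in E2f3 and near Aurkb. The boundary regions of Tyms and Aurkb, described above, were also called in add-back lists alone. A region 10497 bases inside Cdc6 had 310, 294 and 401 bases after 40, 56 and 72 h (chromosome 11, 98918206 to 98918606). One 1066 bases from the start of E2f3, just outside the boundary limit, had 674 and 681 bases after 56 and 72 h, and holds another RefSeq start of that gene. A region of 838 bases lay 3862 bases from Aurkb and was called after 72 h alone. None of these was called at either end point.

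**Figure D5:**
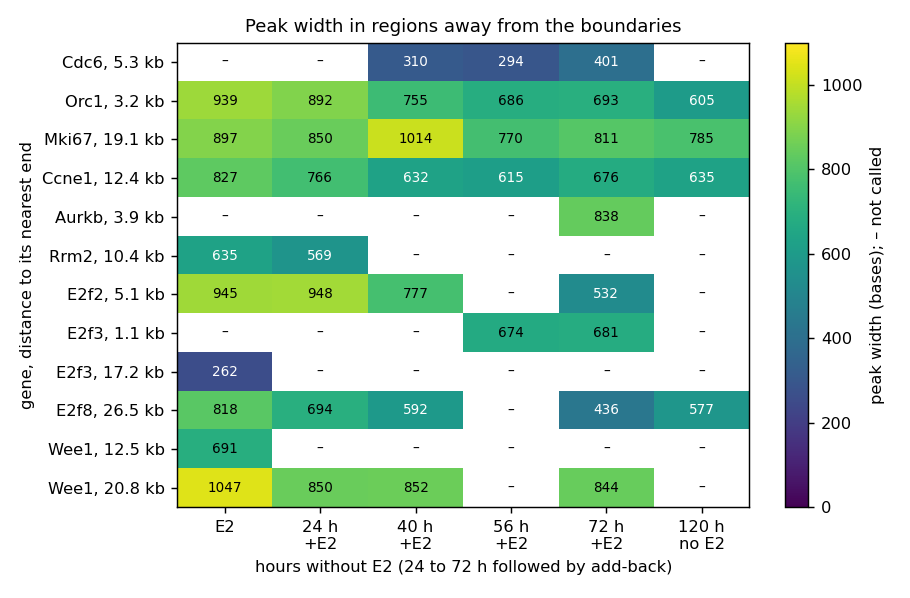
Width in bases of peaks in the 12 regions away from gene boundaries (rows, with the distance in kb to the nearest end of the gene) in the 6 lists (columns, from continuous E2 to 120 h without E2), where a dash marks no call. The regions of Orc1, Mki67 and Ccne1 are called in every list. Those of Rrm2, E2f2, Wee1 and the E2f3 region 17151 bases away are called in continuous E2 and not at 120 h. Those of Cdc6, Aurkb and the other E2f3 region are called at neither end point.

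Among 77 other genes of replication, mitosis and E2F control, 70 had a boundary region (90.9%, background 40.8%). In 49 it was called in every list (63.6%, background 22.1%). Of the 66 boundary regions of the 77 genes called in continuous E2, 14 were not called at 120 h (21.2%, background 29.5%). Of the 55 called at 120 h, 3 were not called in continuous E2 (background 9.89%). The other replication genes had 3 of 28 not called at 120 h, the other mitosis genes 6 of 27, and the E2F, RB and DREAM genes 5 of 11. Lin9, a DREAM subunit, had 1382, 991 and 879 bases in continuous E2 and after 24 and 40 h, and no call in the other lists. Rbl2 and Rbl1, which encode the pocket proteins p130 and p107, were called in every list except 120 h, as were Rfc5, a clamp loader subunit, and Ect2, which acts in cytokinesis. Kif20a and Prim2 also lacked a call at 120 h, and Kif20a lies on chromosome 18. Called at 120 h and not in continuous E2 were Pole, a replicative polymerase, with 646 bases at 120 h, Orc6 with 740 bases and Tfdp1, the partner of E2F factors, with 821 bases.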

How the data were processed

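The data are 6 ATAC-seq peak lists, each assigned by the labels to the 2 libraries of a group, 12 in all. The deposited lists hold chromosome, start and end, with no score, and how the 2 libraries were combined is not given in the sources used here. The submitters' processing notes name BWA, MACS2 2.0, STAR 2.5 and the build mm9, with no role or order. GRCm38 was used instead, because a GRCm38 gene start or end was within 1000 bases for 52.4% to 69.5% of peaks, against 6.03% to 6.29% after a shift of 1 Mb. Strand and start came from the RefSeq promoter table, and the 7 members not in it have no strand here.

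Exact duplicates, all on chromosomes 18 and 19, and intervals over 10000 bases were dropped. Overlapping rows were merged, and the union of the lists, by 1 base of overlap, gave the regions. A region went to every protein-coding gene it overlapped, or else to the nearest within 50000 bases. Member regions were placed at a boundary by the member gene alone, and regions of the background by any gene they were assigned to. The Orc1 region is the member region placed differently by these rules. The members and lists were chosen with earlier results of these data known. All members were accounted for. Of the other pathway genes, up to 10 with a boundary region at 1 of the end points were named, by peak width. Merging, assignment and letter search were tested on simulated data. Tables were made with pandas 2.3.3, numpy 2.4.6 and scipy 1.17.1 under Python 3.11.15, and figures with matplotlib 3.10.9. The result for 1 marker gene is not reported here.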

Additional observations from a re-analysis of the deposited data

How the results depend on the processing

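With 1 list per group, no library could be left out. No paired analysis was possible because the libraries numbered 1 and 2 share a single list. Each of 5 counts was recomputed under 11 other settings, of which leaving out chromosomes 18 and 19 was chosen after seeing the data. Boundary regions called in continuous E2 and not at 120 h, 7 here, numbered 6 to 10, with Bub1, Ccnb2 and Cdc25c added under 50% reciprocal overlap, which the narrowing of peaks makes harder to meet. Genes with a boundary region in every list, 22 here, numbered 17 to 22. Regions called at 120 h and not in continuous E2, 4 here, numbered 3 to 7. There were 3 under 50% reciprocal overlap, where that of Rrm1 dropped out, and 7 when every list was shortened to its 7987 widest peaks. With that shortening, regions away from boundaries called in continuous E2 and not at 120 h numbered 2 instead of 5. That setting drops peaks under 752 bases in continuous E2, but only under 114 bases at 120 h, so it removes narrow member peaks such as those of Mcm2, Top2a and Ccnb2 from continuous E2. Genes without a region, 1 here, numbered 4 when each region went to 1 gene (with Mcm7, Orc1 and Foxm1 added) and 3 without chromosomes 18 and 19, where Cdc25c and Kif11 lie. Depth is unknown and limits what a missing call shows.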
